A study of Rattus norvegicus with 24 samples.

Results

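Cd3d, Cd3e, Cd3g, Cd4, Cd8a, Cd79b, Ms4a1, Cd27 and Cd2 are 9 genes that mark T and B lymphocytes, and their mRNA was followed in the injured rat urethra. They were found by gene symbol among the 32883 genes of the deposited table of normalized counts. The 24 urethras came from female virgin 12-week-old Sprague-Dawley rats, labelled as wild type, in which vaginal birth had been simulated (SVD, simulated vaginal delivery) by crushing the pudendal nerve and distending the vagina. All 6 groups carried this injury, including the saline groups, and no uninjured urethra was analysed here. After 1 h the rats were given saline (control), allogeneic mesoangioblasts (MABs-allo) or allogeneic mesoangioblasts made to overexpress VEGF (MABs-allo-VEGF) into the aorta, and urethras were taken after 3d or 7d, 4 samples a group. Mesoangioblasts are vessel-associated progenitors grown here from hind-limb skeletal muscle of a donor rat. To track the cells, the paper describes a lentiviral eGFP and luciferase reporter driven by the CMV promoter. For MABs-allo-VEGF it describes VEGF with a truncated CD34 driven by the SFFV promoter. The paper also calls MABs-allo untransduced, and whether the cells given to these rats carried the reporter is not stated. Replicates 6 and 7 of MABs-allo-VEGF at 7d are labelled as recovered, meaning urethras with regained function. Nothing in the labels states that samples of a group came from separate animals, so p-values measure the spread between samples.

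T cells recognise antigen through a receptor that signals by way of the CD3 chains, with CD4 or CD8 as co-receptor. CD2 and CD27 are adhesion and costimulatory molecules of T cells, of natural killer cells and, for CD27, of some B cells. CD79B is a signalling chain of the B cell receptor, and Ms4a1 encodes CD20, a surface protein of mature B cells. After tissue injury lymphocytes arrive later and in smaller numbers than neutrophils and macrophages. In rats CD4 is also made by macrophages and monocytes. In whole tissue, fewer cells of a type and less RNA per cell cannot be told apart.

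Samples held 2170695 to 10166052 reads on genes (median 5246798), and the libraries of 3d were shallower (2170695 to 5249467 reads) than those of 7d (5244129 to 10166052 reads). Because the deposited values are whole multiples of 1 read, the reads behind every value were recovered, and a single read stood for 1.67 to 9.23 normalized counts. A level resting on 3 reads, taken here as the detection floor, was 10.3 to 27.7 normalized counts at 3d and 5.004 to 12.4 at 7d. The muscle and epithelial genes Acta1, Myh11 and Upk3a had reads in 24 of 24 samples. Summed genes of urothelium and squamous epithelium were lowest in saline replicate 8 (3222) and MABs-allo-VEGF replicate 2 (4234) of 3d, against at least 39950 elsewhere. Summed smooth muscle genes were also lowest there (23830 and 59080). These samples held all 6 Cd79b reads of saline at 3d and the highest Cd4 value (158.4). The part of tissue make-up in the members' values was not tested. Earlier work on these data found that replicate 6 of saline and replicate 4 of MABs-allo-VEGF, both at 3d, stand apart from their groups, and results that change without them are given both ways. Where a difference is called a DEG (differentially expressed gene), limma gave an adjusted p under 0.05 with a log2 fold change above 1 or below -1.

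The 9 genes were close to the detection floor throughout. Together they took 1211 of 122706104 reads, and their summed level ranged from 45.6 to 755.8 normalized counts in a sample. Cd2 had a read in 24 of 24 samples, Cd3g and Cd8a in 22, Cd3d in 21, Cd27 in 20, Cd3e in 15, and Cd4 and Cd79b in 14. Ms4a1 had 1 read in all, in MABs-allo replicate 2 at 3d. More than 3 reads were counted in 20 samples for Cd2, 19 for Cd8a and for Cd3g, 14 for Cd27, 9 for Cd3d, 7 for Cd3e and Cd4, 5 for Cd79b and 0 for Ms4a1. The 8 genes other than Ms4a1 had a mean normalized count of at least 2 and entered the test. Cd4 did so through 3d alone (mean 37.8, against 0.86 at 7d), so its tests between days are not independent of this filter.

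**Figure D1:**
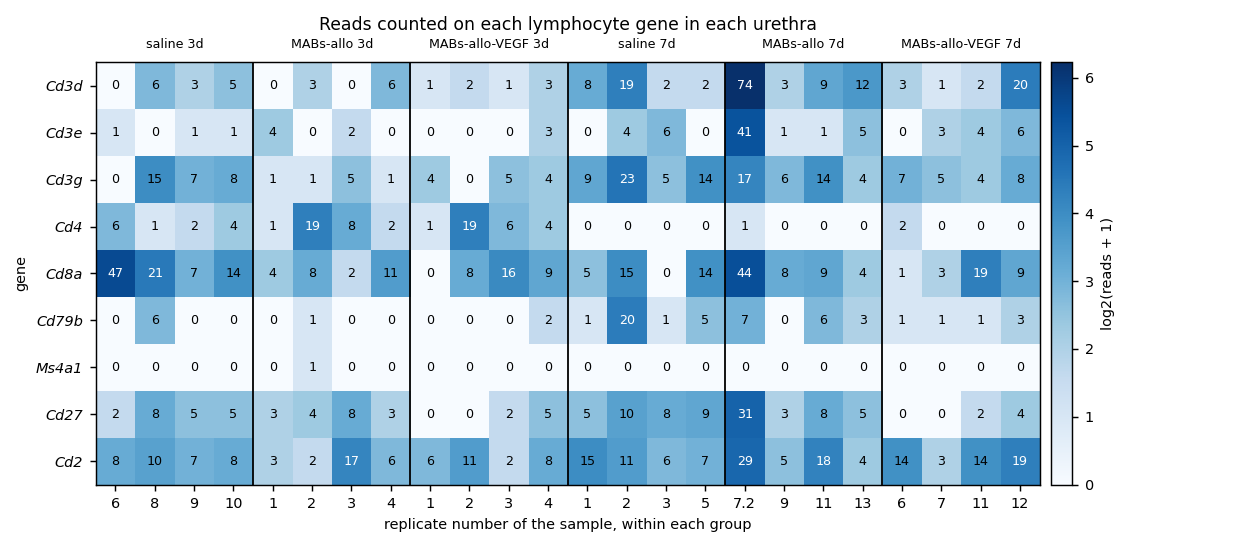
Reads counted on each of the 9 genes (vertical axis) in each of the 24 urethras (horizontal axis, replicate numbers within the 6 groups). Each cell prints the number of reads and its shade is log2(reads + 1). Cd4 had reads in all samples of 3d and in 2 samples of 7d, Ms4a1 had 1 read in all, and MABs-allo replicate 7.2 at 7d had 74 reads of Cd3d.

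Cd4 was higher at 3d than at 7d, and of the other members Cd79b alone was a DEG, in the comparison over the 3 treatments. In MABs-allo, 1 of 8 genes was a DEG between 3d and 7d, against 23% of all genes tested. In MABs-allo-VEGF it was also 1 of 8, against 15.3%, and in saline 0 of 8, against 3.19%. Over the 3 treatments together, a comparison added after the values of Cd4 were seen, 2 of 8 were DEGs, against 22.6% of all genes. These shares are close to or below the background of their comparisons, so they say nothing about the members as a group. None of the treatment comparisons within a day called a member. The counts were 0 of 8 for MABs-allo vs saline at 3d (12.3% of all genes), 0 of 8 for MABs-allo-VEGF vs saline (0.0307%) and 0 of 8 between both cell-treated groups (0.00614%). Without the pair of samples that stand apart at 3d, these comparisons called 0, 1 (Cd27) and 0 members, against 18.1%, 13.6% and 0.0184% of all genes, and saline at 3d and 7d differed at 0.19% of all genes and 0 members. At 7d each of the same 3 comparisons called 0 of 8 members and 0% of all genes by limma, where 1014, 1033 and 452 genes reached an unadjusted p under 0.05.

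The co-receptor gene Cd4 had the clearest pattern. At 3d its normalized counts were 20.7, 3.92, 7.15 and 14.1 in saline, 7.10, 103.9, 73.8 and 10.8 in MABs-allo, and 5.41, 158.4, 30.3 and 17.8 in MABs-allo-VEGF. At 7d they were 0 in 4 of 4 saline samples, 3.10, 0, 0 and 0 in MABs-allo, and 7.25, 0, 0 and 0 in MABs-allo-VEGF. Every 3d sample thus had at least 1 read, while 2 of 12 samples of 7d had any. In all, 73 reads were counted in the shallower libraries of 3d and 3 in those of 7d, a ratio of levels of 40.1 (95% exact counting interval 13.2 to 199). Such intervals cover counting error only, since reads without molecular identifiers are not independent molecules.

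Within treatments Cd4 was 71.3 times as high at 3d as at 7d in MABs-allo by pooled reads (counting interval 11.9 to 2910) and 26.1 times in MABs-allo-VEGF (6.62 to 225). In saline, where all samples of 7d were at 0, it was at least 5.13-fold higher at 3d, with a floor of 3 reads over the group. On the log2(normalized count + 1) scale, which understates the change of low genes, Cd4 was a DEG in MABs-allo (log2 fold change 4.37, SE 0.99, adjusted p = 0.00200 from limma) and in MABs-allo-VEGF (4.04, adjusted p = 0.00576 from limma). The saline comparison just missed the threshold (adjusted p = 0.0514 from limma), and DESeq2 on the recovered reads put it below (adjusted p = 0.0444). Without the pair of samples that stand apart, the adjusted p for saline was 0.187 from limma. The groups of 3d and 7d did not overlap in saline or MABs-allo. In MABs-allo-VEGF the lowest sample of 3d, with 5.41, was under the highest of 7d, with 7.25. Over the 3 treatments the log2 fold change was 3.94 (SE 0.57, adjusted p = 8.55e-06 from limma), and Cd4 was a DEG there in 32 of 32 alternatives. These alternatives reuse the same reads and are not independent evidence.

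Whether the fall of Cd4 differed between treatments was tested as an interaction of day and treatment. It called 0 of 8 members and 0% of all genes for MABs-allo and likewise 0 of 8 and 0% for MABs-allo-VEGF, each against saline (limma, where 2212 and 1341 genes reached an unadjusted p under 0.05). Without the pair of samples that stand apart, 0 members were called in either, against 3.56% and 3.59% of all genes. Among treatments at 3d the mean normalized count of Cd4 was 11.4 ± 7.46 (SD, n = 4) in saline, 48.9 ± 47.8 in MABs-allo and 53.0 ± 71.0 in MABs-allo-VEGF. The cell-treated means rested on MABs-allo replicates 2 and 3 and on MABs-allo-VEGF replicate 2, and the remaining cell-treated samples lay at 5.41 to 30.3, largely within the range of saline (3.92 to 20.7).

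Because rat macrophages can make CD4, their markers are set beside it. Of 15 macrophage and monocyte genes tested, 0 were higher and 2 were lower as DEGs at 3d than at 7d over the 3 treatments, the complement genes C1qb (log2 fold change -1.23) and C1qc (-1.12). The median of the list was -0.06, against 0.03 over all genes. The summed level of that list ranged at 3d from 26870 to 58590 normalized counts in saline, 2939 to 21080 in MABs-allo and 6867 to 46160 in MABs-allo-VEGF, and at 7d from 28370 to 39210, 13130 to 42730 and 10940 to 24040. Between days, 10 of the 15 had log2 fold changes above 0 in saline (median 0.51), 1 in MABs-allo (-1.09) and 13 in MABs-allo-VEGF (0.68). MABs-allo-VEGF replicate 2 at 3d, the sample highest for Cd4, ranked 2 of 24 for the list sum (46160). MABs-allo replicates 2 and 3 of that day, the next highest for Cd4, ranked 15 (21080) and 21 (11730). By the sum of the 3 CD3 genes, MABs-allo-VEGF replicate 2 ranked 23 of 24 (16.7, 2 reads). MABs-allo replicates 2 and 3 ranked 22 (21.9) and 6 (64.6) by that sum. At 3d 7 of the 15 macrophage and monocyte genes were DEGs lower in MABs-allo than in saline and 0 were higher, against 12.3% of all genes. The mean of Cd4 was higher in MABs-allo than in saline at 3d, without being a DEG. Which cells made the Cd4 mRNA was not tested.

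**Figure D2:**
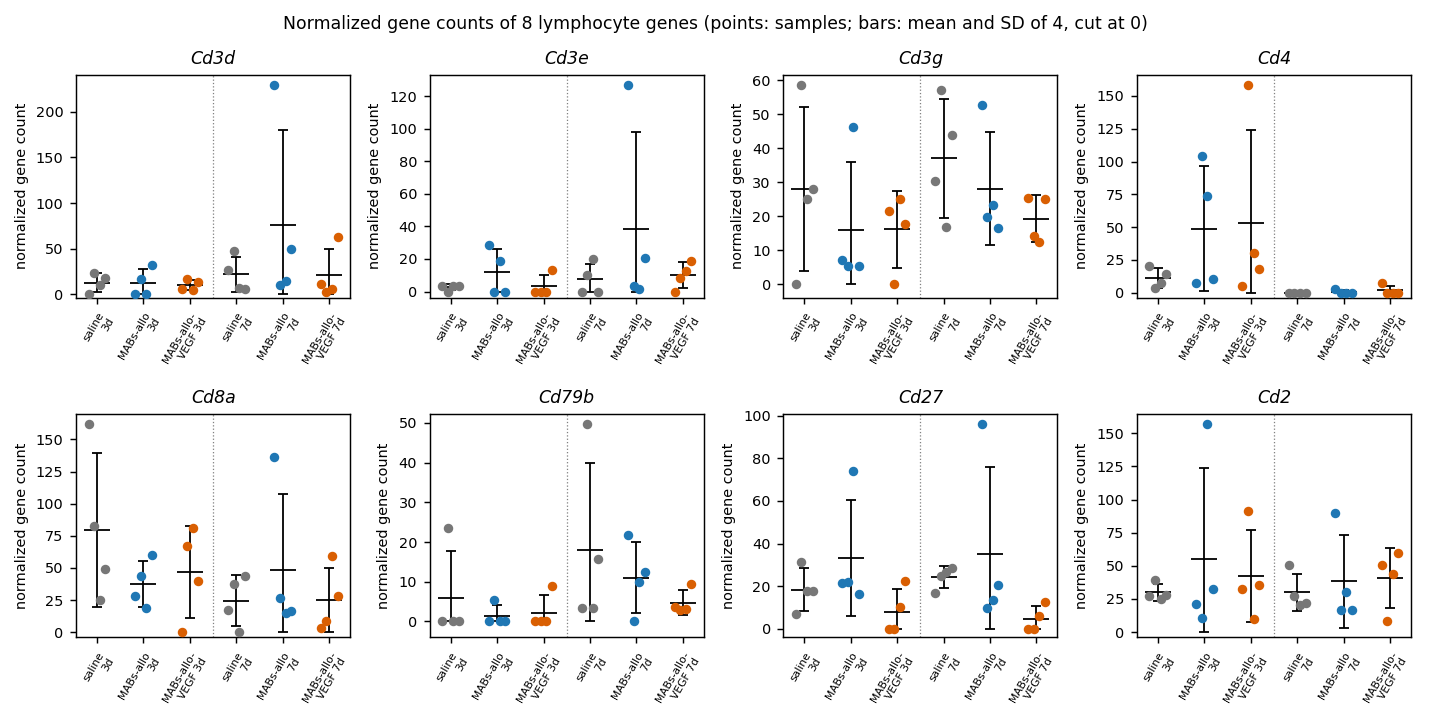
Normalized gene counts (vertical axes, linear, a separate scale for each gene) of the 8 tested genes in the 6 groups. Points are samples, the horizontal marks are group means and the bars are SD of 4 samples, with the lower end held at 0. Cd4 is near 0 in all groups of 7d, Cd27 is lowest in MABs-allo-VEGF on both days, and a single MABs-allo sample at 7d sets the highest point of Cd3d, Cd3e and Cd27.

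The co-receptor gene Cd8a marks cytotoxic T cells and some natural killer cells. Its log2 fold changes between days had the direction of those of Cd4 but were smaller, and none was a DEG. Its normalized counts in saline at 3d were 161.8, 82.3, 25.0 and 49.3, and at 7d 16.9, 37.3, 0 and 44.0. Both ranges overlap, and the largest value came from replicate 6, one of the samples that stand apart. In MABs-allo Cd8a ran from 18.5 to 59.7 at 3d and from 15.01 to 136.3 at 7d, and in MABs-allo-VEGF from 0 to 80.7 at 3d and from 3.63 to 59.0 at 7d. The log2 fold change between the days was 2.29 in saline (SE 1.25, adjusted p = 0.333 from limma), 0.14 in MABs-allo and 0.39 in MABs-allo-VEGF, and none was a DEG. Over the 3 treatments it was 0.94 (SE 0.72, interval -0.51 to 2.38, adjusted p = 0.310 from limma). By pooled reads Cd8a was 1.85 times as high at 3d as at 7d over the 3 treatments (counting interval 1.45 to 2.36). The ratio was 3.10 in saline (2.07 to 4.75), where replicate 6 held 47 of the 89 reads of 3d, and 1.79 in MABs-allo-VEGF (1.07 to 3.01). In MABs-allo it was 1.09 times as high at 7d (0.680 to 1.81). Cd8b, which encodes the partner chain and lies next to Cd8a on chromosome 4, had means of 39.0, 16.9 and 28.8 normalized counts in saline, MABs-allo and MABs-allo-VEGF at 3d and 16.8, 24.1 and 14.1 at 7d. It too had its highest value of 3d, 89.5, in saline replicate 6. In that sample the sum of the 3 CD3 genes was the lowest of all 24 (3.44 normalized counts, 1 read). Its summed natural killer and cytotoxic genes ranked 23 (148.1) and its summed genes of T cell receptor signalling ranked 12 (1264). Which cells made the Cd8a mRNA was not tested.

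The 3 CD3 genes encode the chains that carry the signal of every T cell receptor. They lie side by side on chromosome 8 in the order Cd3g, Cd3d, Cd3e, with the first pair read in opposite directions from starts 1601 bases apart. Promoters were in the reference table for 6 of the 9 genes. Those of this cluster are shown because these chains are the T cell readout of the tissue and the starts of Cd3g and Cd3d are so close. Each runs from 250 bases before to 50 bases after the RefSeq start in the build GRCr8, 5′ to 3′ on the strand of the gene, and capitals mark the ETS core AGGAAG on either strand.
Cd3g (chr8:54183869-54184168, minus strand): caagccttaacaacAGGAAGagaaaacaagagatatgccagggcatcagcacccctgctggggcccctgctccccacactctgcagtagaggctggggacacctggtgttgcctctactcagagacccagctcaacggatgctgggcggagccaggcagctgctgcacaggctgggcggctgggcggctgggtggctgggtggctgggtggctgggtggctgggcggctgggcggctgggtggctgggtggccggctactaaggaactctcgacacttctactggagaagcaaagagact
Cd3d (chr8:54185269-54185568, plus strand): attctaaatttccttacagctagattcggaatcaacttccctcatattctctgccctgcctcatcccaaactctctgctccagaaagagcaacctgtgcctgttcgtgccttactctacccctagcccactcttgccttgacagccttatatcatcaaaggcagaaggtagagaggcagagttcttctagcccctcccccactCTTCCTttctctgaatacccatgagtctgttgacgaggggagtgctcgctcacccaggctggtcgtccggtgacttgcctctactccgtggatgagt
Cd3e (chr8:54211721-54212020, minus strand): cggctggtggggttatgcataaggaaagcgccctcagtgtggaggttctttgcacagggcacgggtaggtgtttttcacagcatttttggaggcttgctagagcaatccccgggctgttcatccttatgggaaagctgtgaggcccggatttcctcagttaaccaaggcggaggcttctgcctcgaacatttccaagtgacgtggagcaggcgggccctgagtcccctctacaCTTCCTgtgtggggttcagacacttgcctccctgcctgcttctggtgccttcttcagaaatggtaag
ETS factors are transcription factors common in blood cells. The core was found in these 3 of the 6 promoters and in 34.5% of the 33469 promoters of the same length, so it is frequent everywhere. It starts at -236 from the start of Cd3g, at -47 from that of Cd3d and at -17 from that of Cd3e. The other motifs searched on both strands were the RUNX core TGTGGT, found in Cd2 alone of the 6 and in 17.3% of all promoters, the GATA motif AGATAA in 0 of 6 and 11.6%, the E-box CAGGTG in Cd3g and 18.8%, the TCF and LEF motif CTTTGA in Cd3d and Cd27 and 16.1%, and the TATA box TATAAA in 0 of 6 and 14.2%. None of these letters overlap. A match describes the sequence and says nothing about binding.

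The levels of the 3 genes were then set against each other across urethras. Over the 24 samples, Pearson's r of log2(normalized count + 1) was 0.07 for Cd3d with Cd3e, 0.33 for Cd3d with Cd3g and 0.18 for Cd3e with Cd3g. For Cd4 it was -0.28 with Cd3d, -0.27 with Cd3e and -0.47 with Cd3g. These are descriptions of sparse counts from libraries of unequal depth, and nothing is read from their size. All samples of Cd3d at 3d lay between 0 and 32.6 normalized counts, of Cd3e between 0 and 28.4 and of Cd3g between 0 and 58.8. Between 0 and 6 reads of Cd3d, 0 and 4 of Cd3e and 0 and 15 of Cd3g stood behind these values.

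At 7d the 12 samples showed a wider spread. Cd3d had 27.1, 47.3, 6.70 and 6.29 normalized counts in saline, 229.2, 9.93, 15.01 and 49.8 in MABs-allo, and 10.9, 2.85, 6.21 and 63.0 in MABs-allo-VEGF. Cd3e had 0, 9.96, 20.1 and 0 in saline, 127.0, 3.31, 1.67 and 20.8 in MABs-allo, and 0, 8.56, 12.4 and 18.9 in MABs-allo-VEGF. For both genes the highest value was MABs-allo replicate 7.2, far above the other 11 samples. Cd3g, at 12.4 to 57.2 normalized counts in all 12, did not set that sample apart (52.7, with saline replicate 2 higher).

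None of the CD3 genes was a DEG between 3d and 7d within a treatment. All 3 had negative log2 fold changes in all 3 treatments, that is, lower values at 3d, and over the treatments these were -1.39 for Cd3d (SE 0.72, adjusted p = 0.124 from limma), -1.22 for Cd3e (SE 0.82, adjusted p = 0.240) and -1.13 for Cd3g (SE 0.62, adjusted p = 0.148). The most negative single value was that of Cd3d in MABs-allo (-2.94, SE 1.25, adjusted p = 0.0766 from limma), and it was -2.07 without replicate 7.2. By pooled reads Cd3d was 3.13 times as high at 7d as at 3d (counting interval 2.11 to 4.80). Of its 155 reads at 7d, 74 came from replicate 7.2. For Cd3e the ratio was 3.59 (1.93 to 7.27), with 41 of 71 reads at 7d from replicate 7.2. For Cd3g it was 1.38 (0.984 to 1.96), an interval that includes 1, and in MABs-allo-VEGF alone 1.06 (0.519 to 2.27).

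MABs-allo replicate 7.2 at 7d carried the highest values of 5 members among the 12 urethras of that day. Cd3d and Cd3e are given above. Cd8a was 136.3 there against at most 59.0 in the other 11, Cd27 96.0 against at most 28.3, and Cd2 89.8 against at most 59.9. Cd4, with 1 read, was not raised in it. The sum of the 3 CD3 genes was 408.9 normalized counts, against at most 114.5 in any other of the 12.

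Genes outside the members stood out in the same urethra. It was the highest of the 12 for 13 of 17 genes of T cell receptor signalling (76.5%), 8 of 14 of T cell activation (57.1%) and 7 of 12 natural killer and cytotoxic genes (58.3%), where it was the highest for 6.67% of all 16287 genes. It was also the highest for 6 of 12 genes of ligands of the members (50%) and 5 of 15 pan-leukocyte genes (33.3%), for 3 of 18 B cell genes and for 1 of 15 macrophage and monocyte genes. Among T cell genes, Lck, the kinase that starts receptor signalling, was 164 against at most 88.3, the receptor chain Cd247 111 against at most 37.8, and the costimulator Icos 381 against at most 208. Of the cytotoxic genes, Prf1, which encodes perforin, was 127 against at most 89.6, and the chemokine Ccl5 was 483 against at most 347. Nkg7, Ctsw, Il2rb and Cxcr3 were also highest there, and these genes were named after their values were seen. This single sample decides the means of MABs-allo at 7d, for example 76.0 ± 103.7 (SD, n = 4) for Cd3d and 38.2 ± 59.8 for Cd3e. The labels give no reason for it.

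Cd27 encodes a receptor of the TNF receptor family that sustains T cell responses. At 3d its normalized counts were 6.89, 31.4, 17.9 and 17.6 in saline, 21.3, 21.9, 73.8 and 16.3 in MABs-allo, and 0, 0, 10.1 and 22.3 in MABs-allo-VEGF. At 7d they were 16.9, 24.9, 26.8 and 28.3 in saline, 96.0, 9.93, 13.3 and 20.8 in MABs-allo, and 0, 0, 6.21 and 12.6 in MABs-allo-VEGF. Samples at 0 occurred in MABs-allo-VEGF alone, 2 of 4 on each day. At 7d the MABs-allo-VEGF samples lay below all 4 saline samples, but overlapped those of MABs-allo.

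In the 4 comparisons of MABs-allo-VEGF with another treatment, the log2 fold change of Cd27 was -2.11 against saline and -2.83 against MABs-allo at 3d, and -2.98 and -2.93 at 7d (SE 1.02 each). The same MABs-allo-VEGF samples enter both comparisons of a day. Unadjusted p from limma was 0.0498, 0.0107, 0.00761 and 0.00849, and the adjusted p was 0.279, 0.664, 0.605 and 1, so none was a DEG. By pooled reads Cd27 was 5.14 times as high in saline as in MABs-allo-VEGF at 7d (32 reads against 6, counting interval 2.12 to 15.03). The corresponding ratio at 3d was 1.87 (20 reads against 7, counting interval 0.761 to 5.24). Without the pair of samples that stand apart at 3d, Cd27 was a DEG against saline (log2 fold change -3.33, SE 1.08, adjusted p = 0.0390 from limma). That pair held the lowest saline value (6.89) and the highest MABs-allo-VEGF value (22.3) of Cd27 at 3d, so leaving it out widens the gap. It was the only 1 of 17 alternatives that called Cd27 there. Between MABs-allo and saline the log2 fold change of Cd27 was 0.72 at 3d and -0.05 at 7d (intervals -1.32 to 2.76 and -2.09 to 1.99). Between days it differed by 0.03 over the 3 treatments (interval -1.15 to 1.20).

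Recovered urethras were compared with the other 10 of 7d to ask how tissue with regained function differed. Cd27 was at 0 reads in both recovered samples and had reads in 10 of 10 others, from 6.21 to 96.0 normalized counts (median 18.8), at least 5.19-fold higher with a floor of 3 reads over the group. The comparison had 0 DEGs among the 7 members tested and 0% among all 15285 genes by limma, where 748 genes reached an unadjusted p under 0.05. Cd27 had an unadjusted p of 6.31e-05 and an adjusted p of 0.322 there. The study had picked out this gene for the same contrast in the same samples, so the values are not independent evidence. Both recovered samples also belong to MABs-allo-VEGF, so recovery and treatment cannot be told apart over the 12. Within MABs-allo-VEGF the other samples had 2 and 4 reads of Cd27.

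All 7 members tested had negative log2 fold changes in the recovered samples, and none passed the test. Cd4 and Ms4a1 were too low at 7d to enter it. Cd4 went the other way, with 2 reads in the recovered samples and 1 in the other 10, and Ms4a1 had 0 in both. Cd8a was at 3.63 and 8.56 normalized counts in the recovered samples, against a median of 27.4 in the others (0 to 136.3), with a log2 fold change of -1.84 (SE 1.21, adjusted p = 0.933 from limma). Cd3d was at 10.9 and 2.85, against a median of 21.0 (6.21 to 229.2). Cd2 was at 50.8 and 8.56, against 16.6 to 89.8, and so 1 recovered sample was high and the other low. Over the 7 members tested the median log2 fold change was -1.46, against 0.02 over all genes. Lists of other genes went both ways there, with 0 DEGs in each. Log2 fold changes above 0 were found for 0 of 8 adipocyte genes (median -5.34), 0 of 8 mast cell genes (-0.52), 1 of 15 macrophage and monocyte genes (-0.55), 2 of 15 pan-leukocyte genes (-0.53) and 2 of 12 natural killer and cytotoxic genes (-1.56). They were also found for 6 of 7 endothelial genes (median 0.22), 6 of 7 smooth muscle genes (0.28) and 5 of 6 striated muscle genes (0.07). For ligands of the members it was 7 of 12 (0.25), and for the urothelium and squamous epithelium 4 of 8 (0.10). Their part in the values of the members was not tested.

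Cd2 encodes the adhesion molecule by which T and natural killer cells bind other cells, with CD48 as its ligand in rodents. It was the most evenly detected member, and its group means did not separate. They were 30.0 ± 6.29 (SD, n = 4) in saline, 55.4 ± 68.2 in MABs-allo and 42.5 ± 34.7 in MABs-allo-VEGF at 3d, and 30.1 ± 14.1, 38.2 ± 35.0 and 40.7 ± 22.4 at 7d. All groups overlapped, and the differences are far within the spread of the samples. The highest value, 156.9, was MABs-allo replicate 3 at 3d, the shallowest library, where it rested on 17 reads. Over the 3 treatments 3d and 7d differed by 0.07 on the log2 scale (SE 0.45, interval -0.83 to 0.98).

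**Figure D3:**
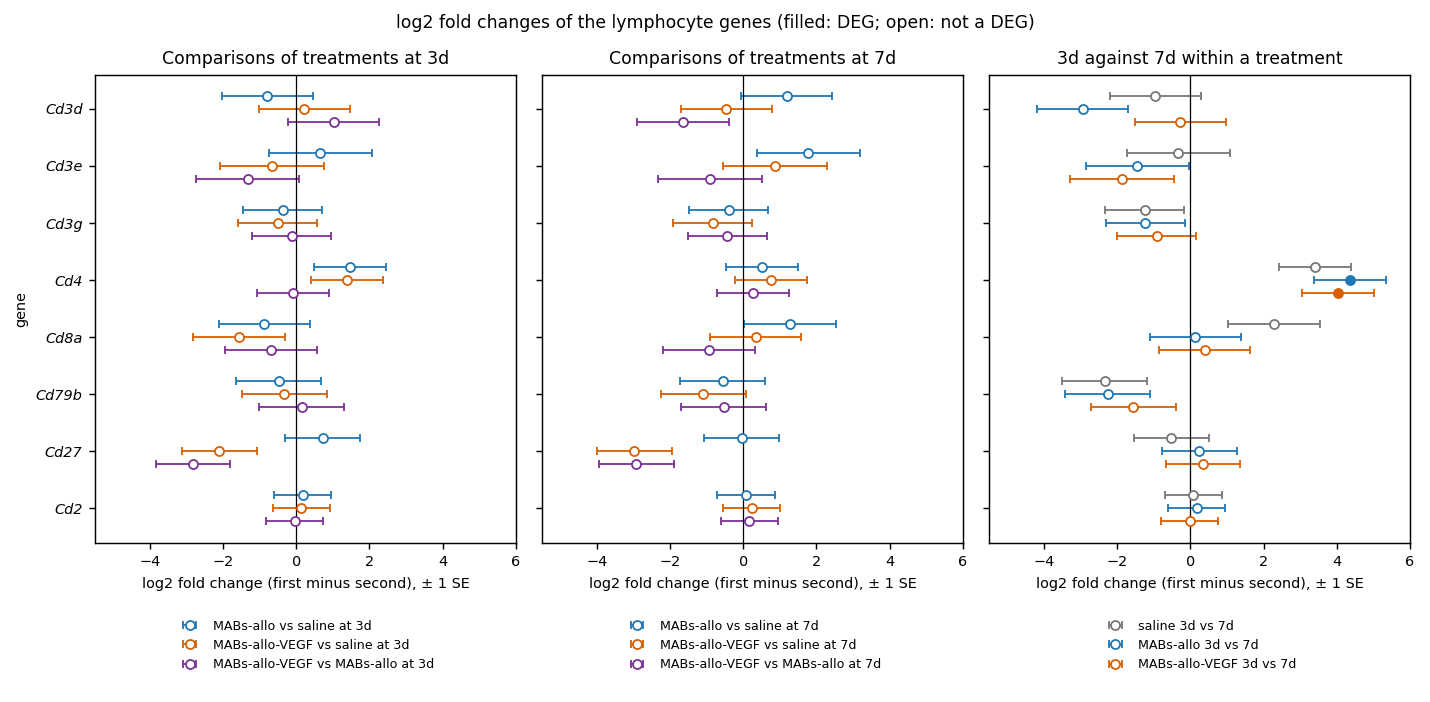
log2 fold changes (horizontal axis, first group minus second, limma on log2(normalized count + 1), bars ± 1 SE) of the 8 tested genes (vertical axis) for treatments at 3d, treatments at 7d and days within a treatment. Filled points are DEGs, and these are Cd4 in MABs-allo (4.37) and in MABs-allo-VEGF (4.04). Cd27 lies to the left in the 4 comparisons of MABs-allo-VEGF with another treatment, from -2.98 to -2.11, without being a DEG.

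Both B cell members had few reads. Ms4a1 had 1 read in 122706104, and so CD20 mRNA was not detectable at this depth in 23 of 24 samples. Cd79b had 58 reads in all, 9 at 3d and 49 at 7d. At 3d its normalized counts were 0, 23.5, 0 and 0 in saline, 0, 5.47, 0 and 0 in MABs-allo, and 0, 0, 0 and 8.90 in MABs-allo-VEGF. At 7d they were 3.38, 49.8, 3.35 and 15.7 in saline, 21.7, 0, 10.01 and 12.4 in MABs-allo, and 3.63, 2.85, 3.10 and 9.46 in MABs-allo-VEGF. A single sample per group had any read at 3d, while 11 of 12 did at 7d, though most of these were at 1 to 3 reads and the libraries of 7d were deeper.

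Cd79b was a DEG over the 3 treatments, lower at 3d (log2 fold change -2.06, SE 0.67, adjusted p = 0.0162 from limma), and by pooled reads it was 3.30 times as high at 7d (counting interval 1.61 to 7.65). This call was lost in DESeq2 and edgeR on the recovered reads, with a pseudocount of 5 and with a filter at 10. Within treatments it was -2.34 in saline (adjusted p = 0.280 from limma), -2.25 in MABs-allo (0.148) and -1.57 in MABs-allo-VEGF (0.366). The value in saline at 7d leaned on replicate 2, with 20 of 27 reads. Among treatments the log2 fold change of Cd79b lay between -0.48 and 0.15 at 3d and between -1.10 and -0.53 at 7d, and none of these was a DEG. Genes of some other cell types were also lower at 3d than at 7d over the 3 treatments, and those of others were not. DEGs lower at 3d were 8 of 8 adipocyte genes (median -3.58), 5 of 8 mast cell genes, 4 of 8 genes of the urothelium and squamous epithelium and 3 of 7 smooth muscle genes, while 0, 1, 1 and 0 were higher. The neutrophil, striated muscle and endothelial lists had 0 DEGs in either direction (medians 0.07, -0.47 and 0.19), and 2 of 15 macrophage and monocyte genes were lower (-0.06). Their part in the values of Cd79b and Cd4 was not tested.

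Wider lists of lymphocyte genes, none of them members, show in which company Cd4 and Cd79b moved. Their counts are to be read against the 22.6% of all genes that were DEGs over the 3 treatments, 2945 of them higher at 3d and 735 lower, and most of the lists lie at or below that share. Of 17 tested genes of the T cell receptor, its co-receptors and signalling, 2 rose and 1 fell at 3d against 7d over the 3 treatments, with a median of 0.09 against 0.03 over all genes. Cd28, the costimulatory receptor of T cells, had a log2 fold change of 3.42 (SE 0.55, adjusted p = 2.78e-05 from limma) and Tcf7, a transcription factor of naive and memory T cells, one of 2.79 (SE 0.58, adjusted p = 0.000449). Txk, a kinase of T cells, was lower by the same test at -2.34 (SE 0.67, adjusted p = 0.00688). Cd28 had 35.5, 38.3, 203 and 114 normalized counts in MABs-allo at 3d, above every sample of the other 5 groups, of which MABs-allo-VEGF replicate 2 of that day came nearest at 25.0. Its range was 0 to 14.1 in saline at 3d and 0 to 13.2 in all 12 samples of 7d. Like Cd4, Cd28 passed the filter of the test through 3d (mean 39.3, against 1.60 at 7d). Cd28 was also higher in MABs-allo than in saline at 3d (log2 fold change 3.98, adjusted p = 0.0120 from limma), as was Bcl11b, a transcription factor of T cells that other tissues also use (1.15, adjusted p = 0.0280).

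Of 14 genes of T cell activation and checkpoints, 0 rose and 2 fell, the chemokine receptor Cxcr3 (-2.25, adjusted p = 0.00959 from limma) and the checkpoint receptor Lag3 (-1.39, adjusted p = 0.0484). Lag3 is the neighbour of Cd4 on chromosome 4, and in MABs-allo it had 0 reads in 4 of 4 samples at 3d and 31.0, 13.2, 3.34 and 16.6 normalized counts at 7d. In saline Lag3 had 3.44, 7.84, 0 and 3.52 normalized counts at 3d and 3.38, 0, 0 and 0 at 7d, and in MABs-allo-VEGF 0, 0, 10.1 and 0 at 3d and 18.1, 8.56, 6.21 and 0 at 7d. The saline samples were thus not lower at 3d, and all of these values rest on few reads. Of 12 natural killer and cytotoxic genes, 0 rose and 2 fell, the granzyme Gzmk (-2.62, adjusted p = 0.00993 from limma) and Ccl5 (-1.08, adjusted p = 0.0432).

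Of 6 plasma cell genes tested, 0 rose and 2 fell at 3d against 7d, Ighm, which encodes the heavy chain of IgM (-2.29, SE 0.64, adjusted p = 0.00583 from limma), and Mzb1, which helps antibody assembly (-1.95, adjusted p = 0.0412). The other 4 did not pass, with log2 fold changes from -0.83 (Sdc1) to 0.44 (Prdm1). Ighm had 21.3 to 348.8 normalized counts at 3d and 47.2 to 3125 at 7d, where the highest were MABs-allo replicate 7.2 and MABs-allo-VEGF replicate 12 (2720). The other 18 tested B cell genes had 1 rise and 0 falls as DEGs, the rise being Cd22, a B cell surface lectin at 0 reads in 12 of 12 samples of 7d. Cd22 had 14 reads at 3d, spread over 5 of 12 samples, and passed the filter of the test through these alone.

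**Figure D4:**
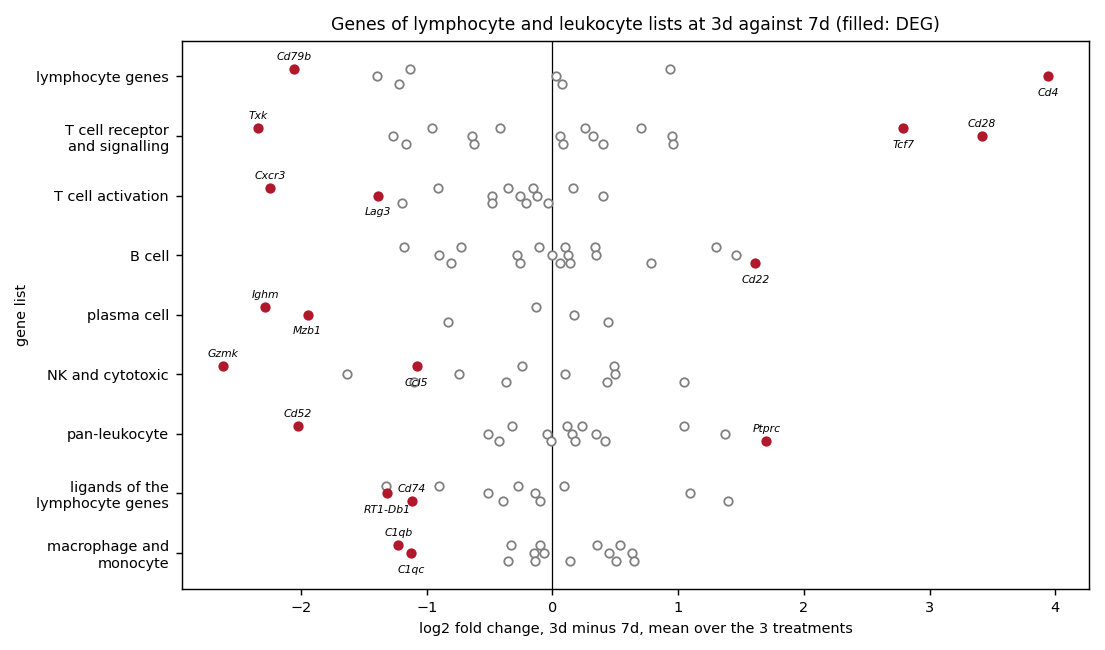
log2 fold changes of single genes at 3d minus 7d, averaged over the 3 treatments (horizontal axis), for the 8 tested lymphocyte genes and 8 lists of related genes (vertical axis). Each point is a gene, filled and named where it was a DEG. Cd4, Cd28 and Tcf7 lie to the right and Gzmk, Txk, Ighm, Cxcr3 and Cd79b to the left, on opposite sides of 0.

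Among 15 pan-leukocyte genes, 1 rose and 1 fell at 3d against 7d. The gene that rose was Ptprc, which encodes CD45 (1.70, SE 0.24, adjusted p = 5.40e-06 from limma), and the one that fell was Cd52 (-2.03, adjusted p = 0.0164). Ptprc ran from 389 to 2167 normalized counts at 3d and from 157 to 567 at 7d. In the comparison of MABs-allo with saline at 3d, which called 12.3% of all genes, 0 of these 15 rose and 4 fell. Among the 4 were Cd53 (-2.56, adjusted p = 0.00964 from limma) and Cd48 (-1.84, adjusted p = 0.0140). No T or B cell member was a DEG in that comparison, and their median was -0.10 against 0.07 over all genes.

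Of 12 tested genes for ligands of the members, 6 were DEGs lower in MABs-allo than in saline at 3d, and 0 were DEGs higher. That comparison called 12.3% of all genes, 1531 higher and 466 lower. Of the 12 ligand genes the other 6 did not pass, and 2 of the 12 had log2 fold changes above 0. The 6 DEGs included the class II molecules that CD4 binds, with RT1-Db1 at -2.33 (SE 0.51, adjusted p = 0.00870 from limma) and Cd74, the class II chaperone, at -1.64 (adjusted p = 0.0151), and Cd48, the ligand of CD2. RT1-Db1 had 3168, 11370, 4653 and 1745 normalized counts in saline and 554, 722, 1154 and 987 in MABs-allo, without overlap. The same 12 genes had 0 DEGs in MABs-allo-VEGF vs saline and 0 between both cell-treated groups at 3d. Of 8 mast cell genes 6 were lower in MABs-allo than in saline as well, with a median of -4.11.

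Finally, the genes whose levels were most like those of each member over the 24 samples were listed among 12755 genes with a mean of at least 20 normalized counts. Cd27 was closest to Irf1 (Pearson's r of 0.74 on the log2 scale, n = 24 samples), Ubd (0.72) and Grap (0.68). Cd2 was closest to Gzmm (0.67), Slc9a3r1 (0.65) and Cst7 (0.62). Cd8a was closest to RGD1565785, B4galnt1 and Tacr2 (0.72, 0.71 and 0.68), Cd3g to Abca2, Def8 and Zer1 (0.82, 0.74 and 0.73), and Cd3d to Zc3hc1, AC119336.1 and Pld3 (0.73, 0.72 and 0.70). Of the pairs of members, Cd3d and Cd79b were most alike (r = 0.59, and 0.53 without replicate 7.2). All of these are descriptions over samples that share day, treatment and depth.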

How the data were processed

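RNA of 24 urethras was made into 3ʹ mRNA libraries (QuantSeq). The authors aligned reads to Rnor6.0 using HISAT2, counted genes using HT-seq Count and scaled counts by size factors, so the deposited signal is a normalized count. Values were whole multiples of 1 read, and reads were recovered from the smallest step. The strand setting is not given in the sources used here. Groups came from the labels. Tests used limma 3.58.1 (R 4.3.3, lmFit, eBayes with trend) on log2(normalized count + 1), two-sided with Benjamini-Hochberg adjustment, in 1 fit of 6 groups for the 16287 genes with a mean of at least 2. Recovered urethras were tested within 7d. DESeq2 1.42.0 and edgeR 4.0.16 (quasi-likelihood) ran on recovered reads. The tests were checked on simulated data. Alternatives were pseudocount 5, filters at 0 and 10, other scalings, fewer groups, fewer samples and the replicate number as a block. The members and lists were chosen with earlier results of these data known, and Cd27 with the study's own. Of 207 list entries, 200 matched by symbol. Named were all members, the 3 highest genes and up to 3 largest DEGs of each list, and the 3 genes most like each member with reads in at least 18 samples. Other genes were named after their values were seen. Promoters came from RefSeq (GRCr8), and those of Cd4, Cd79b and Ms4a1 were not used here.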

Additional observations from a re-analysis of the deposited data

Results flagged for a closer look

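The values below stood apart from the other 3 samples of their group by Dixon's test at the 95% level (a gap over 0.829 of the range). By this rule 17 of the 48 gene and group pairs with any read were marked. The test's rate of about 1 in 20 holds for normally distributed values and not for such low counts, so no excess is read from this number. A group with reads in a single sample is marked whatever their number. In several of these the other 3 samples were at 0. In MABs-allo replicate 7.2 at 7d, Cd3e was 127.0 normalized counts, Cd8a 136.3 and Cd27 96.0, and Cd4, with 1 read, was 3.10. In MABs-allo replicate 3 at 3d, Cd3g was 46.2, Cd27 73.8 and Cd2 156.9, and in replicate 2 of that group Cd79b and Ms4a1 were 5.47 each, from 1 read. At 3d in MABs-allo-VEGF, Cd4 was 158.4 in replicate 2, and Cd3e was 13.4 and Cd79b 8.90 in replicate 4. At 3d in saline replicate 8, Cd79b was 23.5 and Cd3e was 0. At 7d in MABs-allo-VEGF replicate 12, Cd3d was 63.0 and Cd79b 9.46, and in replicate 6 of that group Cd4 was 7.25.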

How the results depend on the processing

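The comparison of days over the 3 treatments was chosen after seeing the data. Cd4 was a DEG in every one of the 17 alternatives run in MABs-allo and of the 17 in MABs-allo-VEGF between days. Over the 3 treatments the count of members called, 2, became 1 (Cd4) with a pseudocount of 5, a filter at 10, DESeq2 or edgeR and 4 (Cd3d, Cd3g, Cd4 and Cd79b) with quantile normalization, and stayed at 2 when any sample was left out. Between days in MABs-allo the count of 1 became 2 with quantile normalization and ranged from 1 to 2 on leaving out single samples, Cd3d being added without MABs-allo replicate 4 of 3d and Cd79b without replicate 9 of 7d. Between days in saline the count of 0 became 1 with DESeq2 and ranged from 0 to 2, the 2 being Cd4 and Cd79b without replicate 8 of 3d. MABs-allo-VEGF vs saline at 3d went from 0 to 1 (Cd27) without the pair of samples that stand apart. That pair held the lowest saline and the highest MABs-allo-VEGF value of Cd27 at 3d. Any further cause was not tested. No member changed sign in a way that reversed a call, and 54 of 54 group levels moved by less than their SD when samples were scaled to the same total. MABs-allo and MABs-allo-VEGF share replicate numbers at 3d. With the replicate block 0 members were called between them and Cd27 stood at -2.83 (SE 1.08, adjusted p = 0.638 from limma). The correlation of same-numbered samples was 0.22, 0.15, 0.07 and 0.25, not every sample correlated best with its own number, and the numbers were not taken as pairs. Most values rest on few reads, which limits their precision.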
